A study of Homo sapiens with 2 samples.

Results

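The genes described are the small nucleolar and spliceosomal RNA genes of GM12878 cells. They were chosen by name (SNORA, SNORD, SCARNA or RNU followed by a digit) and by a mean input coverage, on the authors' scale, of 1 or more. Of 649 such names, 221 passed, out of 10767 genes at that input level and 47352 gene names in all. They comprise 64 of 117 SNORA genes, 112 of 295 SNORD genes, 12 of 25 SCARNA genes and 33 of 212 RNU genes, while 242 of the names had an input of 0. The input values chose the genes, and the ratio of immunoprecipitate to input contains the same values, so all ratios are given as a description without a test.

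Each SNORD gene makes a box C/D small nucleolar RNA (snoRNA), a guide for ribose methylation of ribosomal and other RNA, and each SNORA gene makes a box H/ACA snoRNA, a guide for pseudouridylation. SCARNA genes make the related guides of Cajal bodies, which modify the spliceosomal RNAs, and RNU genes make the small nuclear RNAs of the spliceosome and a few relatives. Most human snoRNAs are cut from introns of other genes, whereas U1, U2, U4, U5, U3 and U8 RNAs come from genes with promoters of their own.

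The study sequenced 1 input library of fragmented RNA and 1 library of fragments bound by an antibody against N6-methyladenosine (m6A), a methylated adenosine, here called the IP. Both came from untreated cells of GM12878, a B lymphoblastoid line transformed with Epstein-Barr virus and drawn from a single donor, grown in RPMI with serum. Whether both libraries started from the same RNA extract is not stated. As each kind has 1 library, no replicates check the difference between them, and neither p-values nor SDs are reported.

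For both samples 1 label field gives embryonic stem cells of mouse, against the human organism and cell line fields. All 8 B cell markers examined had an input of at least 1 (CD74 the highest at 775), as did 2 of 6 T cell markers (TCF7 at 14.4 and CD3E at 1.52). None of 6 pluripotency markers (0) reached 1, the highest being SOX2 at 0.153. Counting 1 listing per gene, coverage corresponded to about 50.3 M input reads and 56.9 M IP reads. At a scaled coverage of 1 each base was covered by 5.84 input reads or 3.71 IP reads.

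Small RNA genes had less coverage in the IP than in the input. The measure was log2((IP + 1)/(input + 1)) of the mean scaled coverage, hereafter the log2 ratio. Its median over the 221 genes was -0.91, with quartiles of -1.42 and -0.50 and a range from -2.51 to 0.85, against a median of 0.34 over all 10767 genes. None of the 221 (0) was at least 2-fold higher in the IP, where the background over all measured genes was 30.7%. At least 2-fold lower were 99 genes, or 44.8%, against a background of 2.16%. A log2 ratio below 0 was found for 209 genes (94.6%), against 32.7% of all measured genes. The 221 genes held 0.316% of the input coverage and 0.0559% of the IP coverage. The scaling between libraries is the authors', and both it and the added 1 move these counts. With 5 added in place of 1, 38 small RNA genes were at least 2-fold lower. Centred on the median of all measured genes, 151 small RNA genes were at least 2-fold lower, and with each library scaled by its total of implied reads 199 were, with 0 at least 2-fold higher under all 3. The last setting also adds a small amount to the reads in place of the 1 added to coverage, so its change is not from scaling alone. Of the 233 measured genes at least 2-fold lower in the IP, these 99 were members of the 4 name classes and 134 were other genes.

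**Figure D1:**
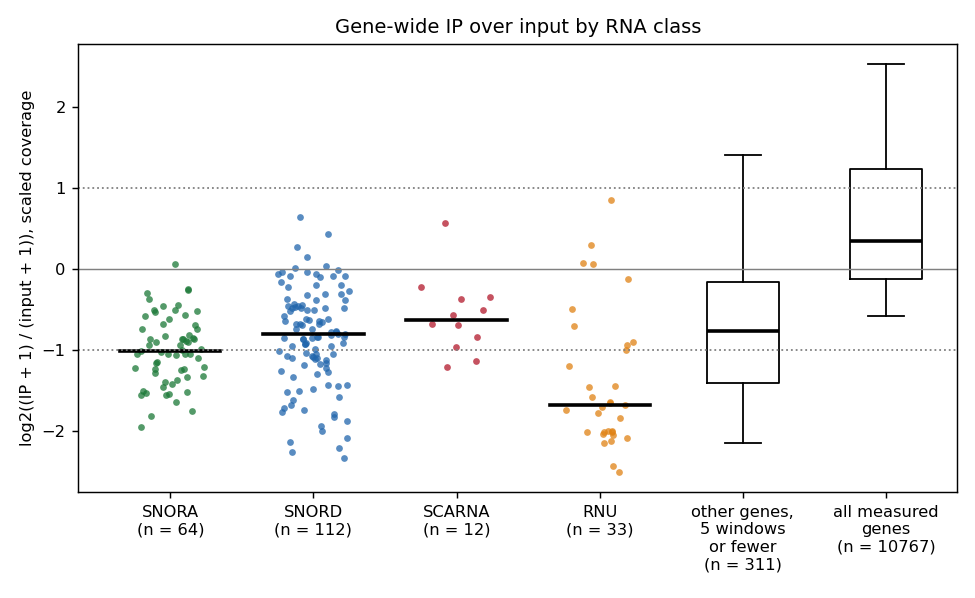
Log2 ratio of IP to input coverage, with 1 added to each, for each small RNA gene (points, black bar the median) and for other genes (boxes with quartiles and median, whiskers from the 5th to the 95th percentile). Dotted lines mark a 2-fold difference, and the class medians lie between -1.68 for RNU and -0.62 for SCARNA, below the median of 0.34 over all measured genes.

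The RNU class had the lowest median, -1.68, with 24 of 33 genes (72.7%) at least 2-fold lower in the IP. With names that share a stem, such as the U1 copies, counted once, its median was -1.44. In the SNORA class the median was -1.01, with 32 of 64 genes at least 2-fold lower. SNORD genes had a median of -0.81, with 41 of 112 genes (36.6%) past the same fold. The SCARNA class stood highest at a median of -0.62, with 2 of 12 genes (16.7%) past it.

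Counting error alone was estimated from the reads that the coverage steps imply. The median gene had 100 such input reads (from 16 to 20774) and 28 IP reads (from 1 to 3827). These counts are lower bounds, since every base was treated as lying in overlapping windows, and bases at the ends of a gene lie in only 1. The 95% counting interval of the read ratio lay wholly below 0 for 167 of 221 genes (background 26.1%), wholly above 0 for 3 (background 61.9%), and held 0 for 51. These intervals leave out differences between libraries and treat PCR copies of a read as independent. Intervals quoted below are of this read ratio on the log2 scale without the added 1, so they centre on a value farther from 0 than the log2 ratio.

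Among the genes of the major spliceosomal RNAs, RNU4-1 and RNU4-2, genes for U4, had the most coverage per gene. Coverage was not summed over the copies of an RNA, of which U1 has many. U4 pairs with U6 RNA and holds it inactive until the spliceosome is activated. RNU4-2 had a mean coverage of 862 in the input and 241 in the IP, a log2 ratio of -1.84 (interval -1.89 to -1.79). RNU4-1, the other expressed U4 gene, went from 878 in the input to 254 in the IP, a log2 ratio of -1.78. The third U4 member, RNU4-7P, a pseudogene by name, was at 6.05 in the input and 2.52 in the IP, a log2 ratio of -1.003. All 3 had less coverage in the IP, and the counting intervals of RNU4-2 and RNU4-1 overlap.

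U1 RNA base-pairs with the 5′ splice site. Its 14 member genes had a median log2 ratio of -2.01, and 13 of them were at least 2-fold lower in the IP. RNU1-2, as an example, had a coverage of 227 (input) and 55.4 (IP). The lowest of the family was RNU1-9, at 200 in the input and 44.1 in the IP (log2 ratio -2.15), and the highest RNU1-19P, at 3.64 and 1.42 (-0.94). Most U1 genes are near-identical copies, and how reads that fit several copies were placed is not stated in the labels or the table. The family therefore counts as less than 14 separate measurements. The remaining U1 members were RNU1-1, RNU1-3, RNU1-4, RNU1-5, RNU1-6, RNU1-7, RNU1-8, RNU1-10P, RNU1-11P, RNU1-12P and RNU1-13P, all between -2.13 and -1.58 on the log2 ratio.

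U5 RNA holds the ends of the exons during splicing, and 2 of its 4 member genes were the lowest of all 221. RNU5B-1 had a coverage of 17.8 in the input and 2.30 in the IP, a log2 ratio of -2.51 (interval -3.48 to -2.44). RNU5A-1 followed, at 22.7 in the input and 3.39 in the IP, a log2 ratio of -2.43. The other U5 members were RNU5A-8P at 3.95 and 0.545 (log2 ratio -1.68) and RNU5E-6P at 1.496 and 0.333 (-0.90, on 35 input and 5 IP reads).

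U2 RNA, which pairs with the branch point, stood apart from U1, U4 and U5. RNU2-2 had a coverage of 74.6 in the input and 68.7 in the IP, a log2 ratio of -0.12 (interval -0.22 to -0.02). RNU2-6P had 13.7 in the input and 14.6 in the IP, a log2 ratio of 0.08 with an interval that holds 0 (-0.13 to 0.31). RNU2-3P was lower in the IP, at 1.89 in the input and 0.781 in the IP, a log2 ratio of -0.70. RNU2-2 lies within the span of WDR74, whose own log2 ratio was 0.07 at a coverage of 5.05 in the input and 5.33 in the IP. Along RNU2-2 the input coverage was 143, 127 and 28.1 in the first 3 windows and the IP coverage 120, 123 and 31.3.

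U6 RNA, the catalytic partner of U2 and a known carrier of m6A placed by METTL16, could not be described at this input level. Of 51 RNU6 names (RNU6ATAC names not counted), none (0) reached an input of 1. The highest was RNU6-73, with 0.885 in the input and 0.600 in the IP, from 21 and 9 reads. RNU6-2 had 0.657 in the input and 0.995 in the IP, with an interval that holds 0 (-0.56 to 1.67). The RNU6 genes named were chosen after their values were seen.

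The minor spliceosome removes a small class of introns with U11, U12, U4atac and U6atac RNAs in place of U1, U2, U4 and U6. RNU4ATAC had a coverage of 62.7 in the input and 18.04 in the IP, a log2 ratio of -1.74. RNU12 had 8.03 and 1.87 (-1.65), and RNU12-2P 4.30 and 0.926 (-1.46). RNU11 had 17.1 in the input and 6.94 in the IP, a log2 ratio of -1.19. RNU6ATAC alone among these was not lower in the IP, at 4.19 in the input and 4.44 in the IP, a log2 ratio of 0.07 (interval -0.38 to 0.55). The counting interval of RNU6ATAC does not overlap that of RNU4ATAC (-1.99 to -1.61), the RNA it pairs with.

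Another 4 name matches in the RNU class are not spliceosomal. RNU7-1 and RNU7-31P carry the name of U7 RNA, which processes the 3′ ends of histone messages. RNU7-31P had the highest log2 ratio of all 221 genes, 0.85, from an input of 1.48 and an IP of 3.47 (23 and 35 reads, interval 0.46 to 2.08), and it stayed above 0, at 0.42, with each library scaled by its total of implied reads. It lies within the span of NLRP1, whose log2 ratio was 1.24. RNU7-1 had 1.75 in the input and 2.39 in the IP, a log2 ratio of 0.30 on an interval that holds 0 (-0.42 to 1.27). RNU86, which RefSeq names SNORD139, had 21.0 and 14.6 (-0.49), and RNU3P3, a U3 pseudogene by name, had 2.56 and 0.307 (-1.44, on 60 and 5 reads).

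**Figure D2:**
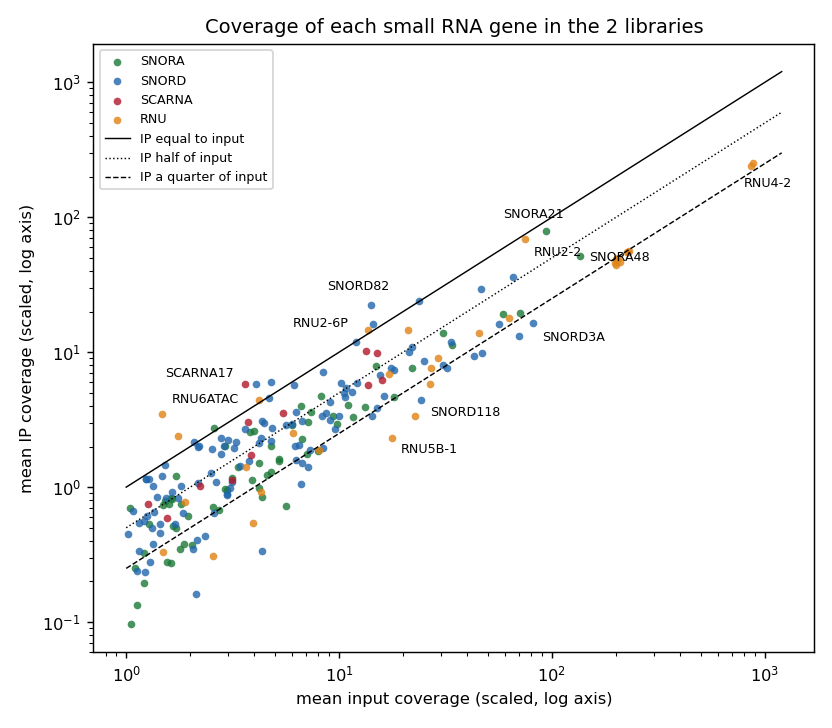
Mean scaled coverage of each of the 221 small RNA genes in the input (x axis, log scale) and in the IP (y axis, log scale), coloured by class. RNU4-2 and the cluster of U1 genes lie near the dashed line, the lowest of those drawn, whereas RNU2-2, RNU2-6P and RNU6ATAC lie near the line of equal coverage.

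A group of snoRNAs serves in the cutting of the ribosomal RNA precursor instead of, or besides, guiding a modification. Of 8 listed, 6 had an input of at least 1, and all 6 were at least 2-fold lower in the IP, with a median of -1.69. The list leaves out other measured entries named SNORD14 or SNORA73, given here by median window coverage and chosen after their values were seen. SNORD14B went from 2.05 in the input to 0.350 in the IP, and SNORD14C from 4.22 to 2.13. Less reduced were SNORD14D, from 2.79 to 2.29, and SNORA73, from 4.16 to 3.04. SNORD3A, a gene for U3, which is needed to cut out 18S RNA, had a coverage of 81.8 in the input and 16.3 in the IP, a log2 ratio of -2.26 (interval -2.48 to -2.18). The 5 U3 genes, near-identical copies of each other, lay between -2.34 (SNORD3C, 70.3 and 13.1) and -1.58 (SNORD3D, chosen after its value was seen). SNORD3B-1, at 47.0 in the input and 9.93 in the IP, had a log2 ratio of -2.13.

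SNORD118 makes U8 RNA, which is needed for the large subunit RNAs. It had a coverage of 24.3 in the input and 4.44 in the IP, a log2 ratio of -2.22. SNORD13 (U13) had 33.7 and 11.8 (-1.44), and SNORD22 (U22) had 10.6 and 4.63 (-1.05). The box H/ACA pair SNORA73A and SNORA73B, genes for U17 RNA, which acts in 18S maturation, had 70.8 and 19.4 (-1.82) and 58.7 and 19.3 (-1.56). The 2 listed genes that missed the input minimum were SNORD14A (0.981 in the input, 0.548 in the IP) and SNORA74A (0.769 and 0.180).

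Lowest among the SNORD genes were 3 U3 genes and SNORD118. At the other end, SNORD82 had a coverage of 14.1 in the input and 22.5 in the IP, a log2 ratio of 0.64 (interval 0.40 to 0.95), which turned to -0.15 with each library scaled by its total of implied reads. It lies within NCL, the gene for nucleolin, whose log2 ratio was 0.66. SNORD57 (4.06 in the input, 5.82 in the IP, log2 ratio 0.43) and SNORD56 (4.79 and 6.0001, 0.27) both lie within NOP56, a gene for a core protein of box C/D particles, whose own log2 ratio was 0.49. SNORD58C, within RPL17, had 14.4 and 16.1 (0.15). The intervals of SNORD57, SNORD56 and SNORD58C hold 0, so the excess of IP in these 3 was not detectable at this depth.

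In the SNORA class the lowest gene was SNORA8, at 5.65 in the input and 0.723 in the IP, a log2 ratio of -1.95. It was followed by SNORA73A, by SNORA44 (18.2 and 4.68, -1.75) and by SNORA52 (7.96 and 1.86, -1.64). The most covered SNORA gene, SNORA48, had 135 in the input and 51.7 in the IP, a log2 ratio of -1.37 (interval -1.501 to -1.27). The highest were SNORA68 (2.59 and 2.74, 0.06), SNORA21 (94.1 and 78.9, -0.25), SNORA54 (1.04 and 0.703, -0.26) and SNORA78 (1.72 and 1.22, -0.29).

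Among the 12 SCARNA genes, SCARNA17 was the exception. Its coverage was 3.61 in the input and 5.83 in the IP, a log2 ratio of 0.57 with an interval above 0 (0.44 to 0.95), but with each library scaled by its total of implied reads it was -0.14. Its excess lay in parts of the RNA: window 1 went from 4.32 in the input to 10.4 in the IP, window 2 from 5.99 to 12.1, window 4 from 3.77 down to 2.97, and window 6 from 4.08 to 8.05. Window 1, with a log2 ratio of 1.096, was the only 1 of 552 windows with an input of at least 1, over all 221 genes, that was at least 2-fold higher in the IP. In the opposite direction 269 of the 552 windows passed that fold. The shares over the windows of all measured genes are not given here, so how unusual either count is cannot be told.

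SCARNA22 (15.8 in the input, 6.26 in the IP, log2 ratio -1.21) and SCARNA12 (13.7 and 5.72, -1.13) were at least 2-fold lower. SCARNA2, the only SCARNA member outside the span of another gene in RefSeq, had 3.87 and 1.74 (-0.83), and SCARNA16 3.14 and 1.13 (-0.96). SCARNA5, SCARNA13, SCARNA21, SCARNA7 and SCARNA11 lay between -0.69 and -0.37. SCARNA9, a long RNA of 8 windows with 13.4 in the input and 10.3 in the IP (-0.35), was lower in the IP in its first window (15.5 and 7.36) and near equal in its sixth (14.02 and 14.4). SCARNA9L had 3.72 and 3.05 (-0.22).

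Sequence of these RNAs was used here only where a microRNA hairpin annotated by RefSeq overlaps one, as it does in SNORA81, SNORA34, SCARNA16 and SNORA84. The hairpins are shown because nearly all of each is a stretch of a small RNA gene that had less coverage in the IP, some of them carrying GGAC, the core of the usual m6A motif. In these sequences, 5′ to 3′, capitals mark GGAC, and positions are on GRCh38.p14.
MIR1248 overlapping SNORA81, chr3:186786672-186786777, plus strand: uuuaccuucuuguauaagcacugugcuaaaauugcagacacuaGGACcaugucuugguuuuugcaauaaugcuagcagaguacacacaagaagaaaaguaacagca
MIR1291 overlapping SNORA34, chr12:48654444-48654530, minus strand: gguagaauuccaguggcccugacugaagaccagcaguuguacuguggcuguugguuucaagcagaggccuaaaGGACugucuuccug
MIR6516 overlapping SCARNA16, chr17:77089417-77089497, plus strand: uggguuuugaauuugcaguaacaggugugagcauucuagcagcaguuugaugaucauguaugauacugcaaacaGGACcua
MIR3651 overlapping SNORA84, chr9:92292458-92292547, minus strand: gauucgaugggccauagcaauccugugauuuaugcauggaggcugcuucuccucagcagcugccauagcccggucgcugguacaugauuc

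Of these hairpins 4, 12, 4 and 3 bases, in the order shown, lie outside the small RNA gene. GGAC occurs once in the first 3 hairpins and not in MIR3651, and GUCC, the same letters on the other strand, in none (0). All 4 bases of GGAC lie inside SNORA81 and SNORA34, and 3 of the 4 inside SCARNA16. Of 655 RefSeq hairpins of 81 to 106 nt, 27.8% hold GGAC and 27.8% hold GUCC. SNORA81, with the motif, had a coverage of 4.604 in the input and 1.24 in the IP, a log2 ratio of -1.32. Its windows 1 to 4 had 4.72, 4.96, 4.96 and 3.79 in the input and 1.505, 1.48, 1.20 and 0.764 in the IP, so no window stood out upward. SNORA34 had 2.74 and 0.675 (-1.16). SNORA84, whose hairpin lacks the motif, had 1.21 and 0.325 (-0.74) on few reads (interval -3.61 to -0.50). That hairpin covers 87 of the 133 nt of SNORA84, and the rest was not searched. A match to these 4 letters is a description and not a methylated site.

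Within the 4 RNAs that follow, each window had less coverage in the IP than in the input. Along SNORD3A the input coverage was 163, 158, 46.8, 33.8 and 7.65 in windows 1 to 5, and the IP coverage 27.5, 28.2, 11.7, 10.9 and 3.39. RNU1-2 had 318, 427, 160 and 0.949 in the input and 67.5, 105, 48.9 and 0.358 in the IP. RNU4-2 had 1212, 1250 and 123 against 343, 350 and 29.5. SNORA73A had 64.5, 152, 117, 17.0 and 2.71 in the input against 11.4, 40.6, 37.7, 5.79 and 1.26 in the IP.

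**Figure D3:**
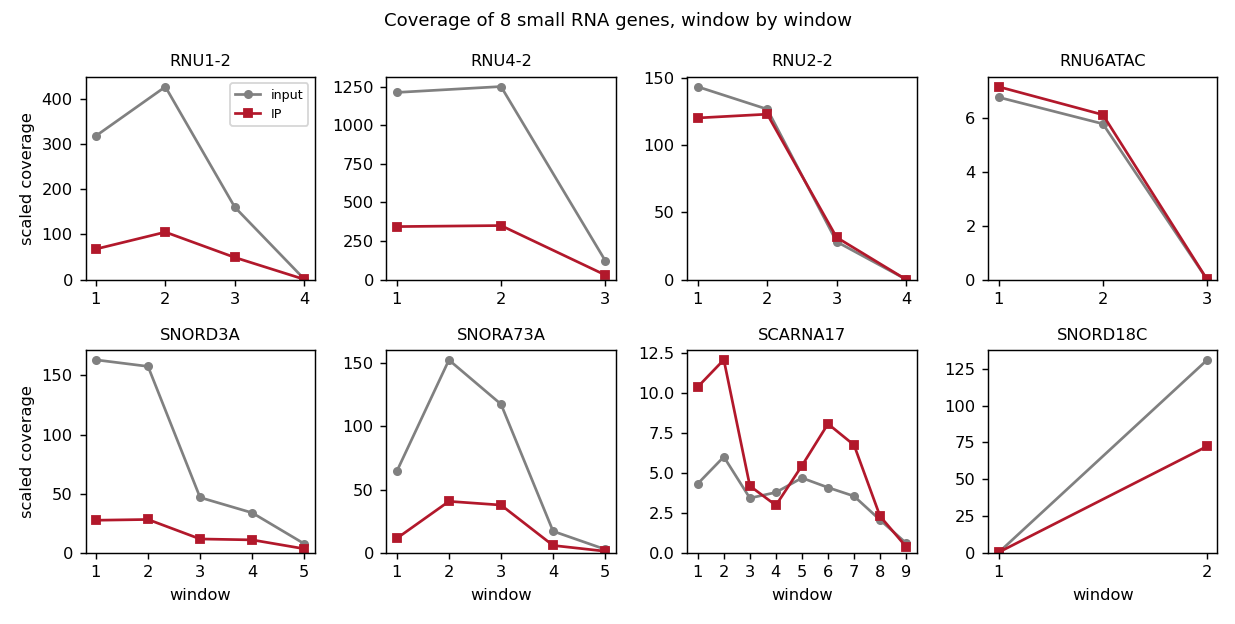
Scaled coverage of input (grey circles) and IP (red squares) in each window of 8 small RNA genes, on a separate linear axis for each gene. RNU1-2, RNU4-2, SNORD3A and SNORA73A are lower in the IP throughout, RNU2-2 and RNU6ATAC are close to equal, SCARNA17 is higher at its start, and SNORD18C has its coverage in window 2.

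The authors' window score compares windows only within a gene. As recomputed, it is the log2 of a window's IP over its gene median divided by the same for the input, with 1 added to each value. It reached 2 in 10 of 637 windows of the small RNA genes, against a background of 5.75% of the windows of all measured genes. All 10 were the last window of their gene and had an IP coverage below the gene's IP median, and in 8 of them the IP was 0. RNU1-1 gives the pattern: window 4 had 0.0634 (input) and 0 (IP), which the added 1 brings to a log2 ratio of -0.09. Its score was 2.004 because the gene median was 216 in the input and 49.8 in the IP. Among the 10 windows only the last of RNU5B-1 had more IP than input, 0.148 against 0.139.

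Windows of 100 nt every 50 nt run past the end of a short RNA, so a last window can take in neighbouring sequence. In 21 of 219 genes with several windows the last window had over 2 times the input coverage of the rest. SNORA21 had 7.25 and 7.49 in windows 1 and 2 of the input against 1.17 and 1.74 in the IP, and then 268 and 234 in window 3. Without that window its log2 ratio was -1.77 instead of -0.25. SNORD18C, among the 3 SNORD genes with most input (65.6, and 36.3 in the IP, log2 ratio -0.84), had 0.267 and 0.353 in window 1 and 131 and 72.3 in window 2. SNORD82 likewise had 0.807 and 0.875 in window 1 and 27.4 and 44.2 in window 2, and SNORA68 and SNORD58C went from 0.06 to -0.45 and from 0.15 to -0.46 without the last window. Leaving out the last window of every gene gave a median of -1.05 over 219 small RNA genes, with 118 at least 2-fold lower and none (0) at least 2-fold higher.

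Short genes outside the 4 name classes also tended to have less IP than input. Over 311 other measured genes of 5 windows or fewer the median log2 ratio was -0.77, with 37.0% at least 2-fold lower and 9.0% at least 2-fold higher. The 213 small RNA genes of that size had a median of -0.94, with 46.0% and 0%. At 2 windows the medians were -0.68 for small RNA genes and -0.56 for others, and at 3 windows -1.05 and -1.28. At 4 windows they were -1.64 over 23 small RNA genes and -0.44 over 8 others, and at 5 windows -1.95 over 8 and 0.27 over 10. Among other short genes, 71 genes of 5S and 5.8S ribosomal RNA and their copies had a median of -1.86, 19 genes that RefSeq classes as small nuclear RNA one of -0.91, and 105 microRNA genes one of -0.29. Other genes of over 9 windows had a median of 0.41, with 0.0894% at least 2-fold lower. The log2 ratio thus differed with gene length, but from 2 to 5 windows it fell steadily only in the small RNA genes. Of those, 14 of the 23 at 4 windows are U1 genes and 5 of the 8 at 5 windows are U3 genes, mostly near-identical copies. The fall therefore rests largely on 2 RNA families. At 6 and 7 windows the medians of small RNA genes were higher again, -0.69 (3 genes) and -0.36 (2 genes). The part of length in the low ratios of small RNA genes was not tested.

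**Figure D4:**
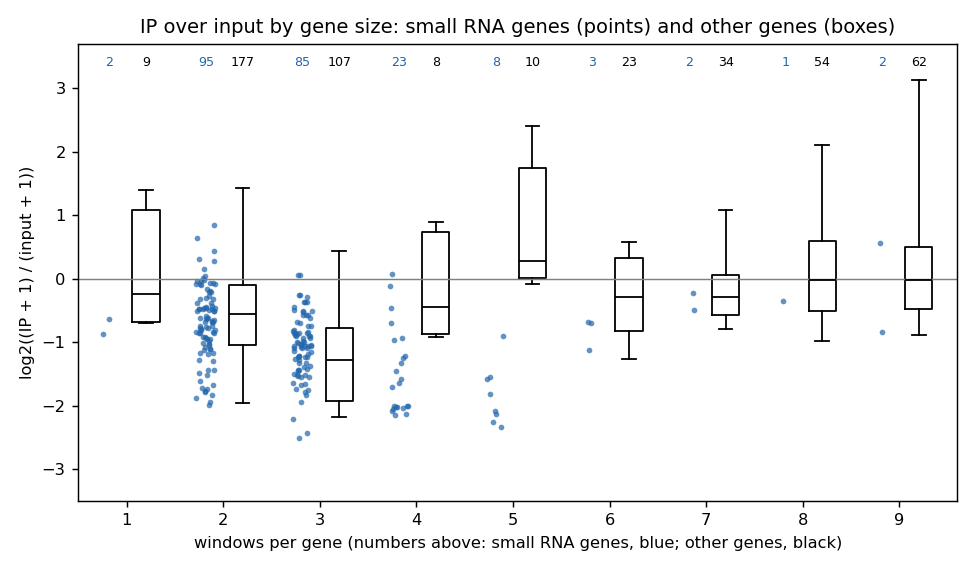
Log2 ratio of small RNA genes (points) and of other measured genes (boxes with quartiles and median, whiskers from the 5th to the 95th percentile) by the number of windows per gene, with gene numbers above. At 2 and 3 windows the points and boxes overlap, and at 4 and 5 windows the medians of small RNA genes are -1.64 and -1.95, against -0.44 and 0.27 for the others. Most small RNA genes at 4 windows are copies of U1, and most at 5 windows copies of U3.

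The log2 ratio also moved with the level. Small RNA genes with an input of 1 to 2 had a median log2 ratio of -0.58 (54 genes), those of 5 to 10 one of -1.24 (36 genes), and those of 50 or more one of -2.003 (21 genes). All measured genes in the same ranges had medians of 0.53, 0.30 and -0.31. The added 1 draws low values toward 0, so part of the order is built into the measure.

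Most snoRNA genes lie within another gene, whose RNA was measured in the same libraries. A gene that spans the small RNA gene in RefSeq and has an input of at least 1 was found for 176 of the 221 (101 different genes, strand not given in the table used). In 157 of 176 pairs (89.2%) the small RNA gene had the lower log2 ratio, with a median difference of -0.65. For scale, 98.2% of the 221 lay below the median of all measured genes, and pairings with unrelated genes were not tried. Over the 176 pairs, with a spanning gene counted once for each pair, the median log2 ratio of the spanning genes was -0.23. Pairs that share a spanning gene are not independent of each other.

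GAS5, a non-coding gene known mainly as a carrier of snoRNAs, spans 10 of the small RNA genes. Its coverage was 14.1 in the input and 9.30 in the IP, a log2 ratio of -0.55, and 7 of the 10 lay below it. They ran from SNORD79 (6.68 in the input, 1.51 in the IP, -1.61) to SNORD75 (2.07 and 2.15, 0.04). Genes at the ends of such clusters were chosen after their values were seen.

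All 8 SNORD genes within SNHG1, another such carrier (19.9 in the input, 22.3 in the IP, log2 ratio 0.15), were below it, from SNORD28 at -1.88 to SNORD31 at -0.20. TAF1D, a gene for a subunit of a polymerase I factor, had the highest log2 ratio of the genes plotted that span at least 4. It had 7.85 in the input and 15.3 in the IP, a log2 ratio of 0.88, while its 7 small RNA genes lay between -1.95 (SNORA8) and -0.37 (SNORA40). Among ribosomal protein genes, all 4 small RNA genes within RPL13A (log2 ratio 0.48) lay below it, at -1.74 to -0.95, and 3 of 4 within RPL7A (log2 ratio -0.46) did.

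**Figure D5:**
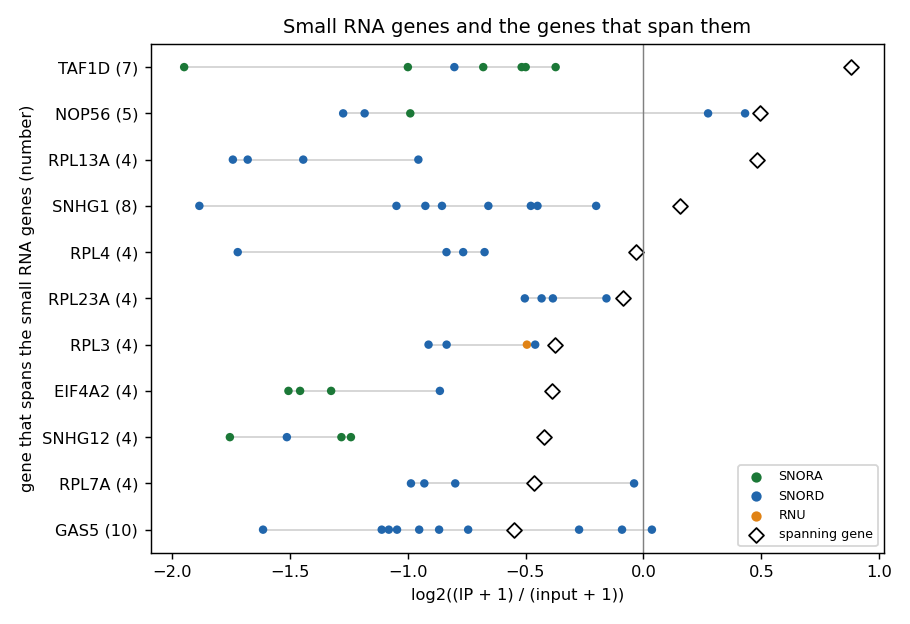
Log2 ratio of small RNA genes (circles, coloured by class) and of the gene that spans them (diamonds), for 11 genes that span at least 4, with their number in parentheses. In this plot the circles lie to the left of the diamond except 3 in GAS5 and 1 in RPL7A.

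The 22 small RNA genes outside the span of any other gene had a median log2 ratio of -1.92, and 20 of them were at least 2-fold lower in the IP. They include the U3 genes, SNORD13, RNU12 and the U5 genes RNU5A-1 and RNU5B-1. The U1 genes RNU1-1, RNU1-2, RNU1-3, RNU1-4, RNU1-9 and RNU1-13P are also among them. As the U3 genes and most U1 genes are near-identical copies, the group counts as less than 22 separate measurements. The 193 inside another gene had a median of -0.86, with 74 (38.3%) at least 2-fold lower. The remaining 6 could not be placed. These groups also differ in length and level, and neither was held fixed.

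Messages for the protein partners had higher medians than the small RNA genes, near or below the 0.34 over all measured genes. All 20 listed genes for proteins and assembly factors of snoRNA particles were measured. Their median log2 ratio was 0.35, with 4 at least 2-fold higher and 0 at least 2-fold lower, where the shares over all measured genes were 30.7% and 2.16%. The highest was PHAX, an export adaptor for small nuclear RNAs, at 2.43 and 12.2 (1.94), and the lowest RUVBL2, an assembly ATPase, at 13.2 and 9.87 (-0.38). Of 38 listed genes for spliceosomal proteins and small nuclear RNA processing, 35 were measured, with a median of 0.06, 7 at least 2-fold higher and 0 lower. They ran from GEMIN4, of the SMN complex, at 5.67 and 33.2 (2.36), to SNRPB, a core Sm protein, at 44.9 and 29.4 (-0.60).

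Other structured non-coding RNAs had low ratios too. Of 15 listed, 9 were measured, with a median log2 ratio of -1.20, 6 at least 2-fold lower and 0 higher. TERC, the telomerase RNA, was the highest, at 1.85 in the input and 0.834 in the IP (-0.63). RNY3, a Y RNA, was the lowest, at 15.9 and 3.12 (-2.03).

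Genes next to the input minimum were lower in the IP on either side of it. Just above were SNORD87 (1.02 in the input, 0.447 in the IP, log2 ratio -0.48) and SNORA54, and just below were SNORD101 (0.999 and 0.466, -0.45) and SNORD14A (0.981 and 0.548, -0.36). A minimum on the input favours genes whose input is high by chance. With a minimum on the average of input and IP instead, 199 small RNA genes passed, 198 of them among the 221, at a median of -0.99, with 98 at least 2-fold lower.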

How the data were processed

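The deposited table gives, per the file headers, input and IP coverage for 3335372 windows. The authors scaled this coverage signal separately for each library, and their window score is a log2 value that was recomputed exactly (0 differences above 1e-06). Reads were aligned with TopHat 1.1.3 to hg19, per the submitters' processing notes. For the coverage program, annotation and scaling factor, names or values were not given in the sources used here.

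For each gene name the listing with most windows was kept, coverage was averaged, and log2((IP + 1)/(input + 1)) was computed with Python 3.11.15, numpy 2.4.6 and pandas 2.3.3. Of the values above 0, 100% were whole multiples of 1 step within 0.01 step. Reads were counted from these steps as 37 nt each, and exact Clopper-Pearson 95% intervals came from scipy 1.17.1. The calculation was tested on simulated data. Called genes differed at least 2-fold, a round size rule. RefSeq gave current names (202 matched by symbol, 13 by an older name, 6 not matched) and spanning genes, on another build.

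Members and lists were chosen with earlier results of these data known. Named are every RNU and SCARNA member, in SNORA and SNORD the 4 highest, 4 lowest and 3 most covered, listed processing snoRNAs, and the extremes of other lists. SNORD103A and SNORD103B had identical values, so they count as 1 measurement. Some genes that these rules select are not reported here.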

Additional observations from a re-analysis of the deposited data

How the results depend on the processing

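No paired analysis was possible because each group has 1 library. With both libraries scaled by their total of implied reads the median of the small RNA genes was -2.17, with 199 at least 2-fold lower, and the class medians were -2.40 (SNORA), -1.94 (SNORD), -1.75 (SCARNA) and -2.85 (RNU). That setting also adds a small amount to the reads in place of the 1 added to coverage, so its shifts are not from scaling alone. It put the median of all measured genes at -0.39, with 24.0% of them at least 2-fold lower and 19.1% higher. The same setting turned 11 of the 12 small RNA genes above 0 below it, the exception being RNU7-31P. Centring on all measured genes gave 151 at least 2-fold lower and turned 8 of the 12. Adding 5 in place of 1 gave 38, and adding 0.1 gave 1 gene at least 2-fold higher. Counting names that share a stem once left 198 small RNA genes at a median of -0.87, with 82 at least 2-fold lower. The 22 genes outside other genes, an alternative chosen after seeing the data, had a median of -1.92 (SNORD -2.11), with 20 at least 2-fold lower. Copies of U1 and U3 are among those 22. The share of small RNA genes below their spanning gene was 75.6% when 5 was added, 76.7% with medians over windows and 95.9% at an input minimum of 5. Whether another gene's exon overlaps was not run, since the gene table holds no exons. No class median and no named gene past 2-fold changed direction under any setting run. Leaving out last windows, also chosen after seeing the data, changed the sign of 8 genes. Medians over windows changed 2, and put 7.59% of all measured genes at least 2-fold higher. Depth limits single genes: the median interval spans 0.65 to either side on the log2 scale.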
